A study of Mus musculus with 12 samples.

Results

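The miRNAs miR-26a-5p (MIMAT0000533) and miR-26b-5p (MIMAT0000534) were followed in all 12 small RNA libraries of the study, as 2 of the 874 mouse miRNAs listed in at least 1 library. They were picked by accession, with their counts in these libraries already known, together with the ratio of the pair. Their levels and their ratio are therefore given as a description, with the spread over mice and no test. The libraries came from 6 sera of 3 female athymic NCr nude mice (mice 1046, 1047 and 1069), 4 to 6 weeks old when tumour cells were implanted. Each mouse was bled 1 week before and 2 weeks after human SH-SY5Y cells, an established neuroblastoma line, were surgically placed beneath the renal capsule. Each serum gave 2 libraries under one sample number in the labels, called its aliquots here, from RNA of 50 μl of serum. One aliquot was depleted of abundant 5′ tRNA fragments with biotinylated DNA probes and streptavidin beads, and the other was left undepleted. The study describes both as the same RNA samples, with and without depletion. The 4 groups, before or after injection and depleted or undepleted, thus held 3 libraries each. No mouse without tumour cells was analysed here at the later time. Tumour growth, the surgery, the earlier bleed and elapsed time therefore cannot be told apart.

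miRNAs are short RNAs that guide silencing complexes to messenger RNAs, chiefly through their seed, the bases 2 to 8 from the 5′ end. The miR-26 family is expressed in many tissues and is mostly described as restraining growth: its members repress regulators of the cell cycle and of chromatin, among them EZH2, and are themselves repressed by MYC. Their genes lie within genes for small phosphatases that act on the C-terminal domain of RNA polymerase II. In serum, miRNAs come from blood cells and from many tissues, and a count there does not tell the source.

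The mature sequences (RefSeq, GRCm38.p6) are shown because a read must be assigned to one or the other of the pair, with the seed in capitals:
miR-26a-5p: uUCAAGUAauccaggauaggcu
miR-26b-5p: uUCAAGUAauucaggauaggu

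Both carried the seed UCAAGUA, and no other mature mouse miRNA in the RefSeq table had it. Counted from 1 at the 5′ end of miR-26a-5p, the pair differed by the substitutions C11U and C21U, and miR-26a-5p is 22 bases long against 21 for miR-26b-5p. With the differing bases in capitals, they read:
miR-26a-5p: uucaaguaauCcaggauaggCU
miR-26b-5p: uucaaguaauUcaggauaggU

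The longest stretch shared by both was 10 bases, shorter than the minimum read length of 15 bases. Since reads were mapped without mismatches, no read lying within the mature sequence could match both. Among 1005 mouse hairpins, a 15-base stretch of miR-26a-5p occurred in Mir26a-1 and Mir26a-2 alone, and one of miR-26b-5p in Mir26b alone. The GC content was 40.9% for miR-26a-5p and 33.3% for miR-26b-5p.

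The mature miR-26a-5p is made from 2 loci and miR-26b-5p from 1. The hairpins are shown with the mature 5p strand in capitals, since the counts do not tell the 2 sources of miR-26a-5p apart:
Mir26a-1: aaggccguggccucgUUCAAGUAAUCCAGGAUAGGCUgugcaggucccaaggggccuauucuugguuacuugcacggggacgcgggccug
Mir26a-2: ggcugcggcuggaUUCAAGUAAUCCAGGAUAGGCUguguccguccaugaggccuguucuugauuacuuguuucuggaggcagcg
Mir26b: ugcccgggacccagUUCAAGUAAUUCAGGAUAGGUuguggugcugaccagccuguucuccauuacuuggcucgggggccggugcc

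Mir26a-1 lies on GRCm38 chr9:119031796-119031885 (plus strand), intronic to Ctdspl. Mir26a-2 lies on chr10:126995530-126995613 (plus strand) within Ctdsp2. It is intronic there apart from its last base, where an exon of 2 of the 3 overlapping Ctdsp2 transcripts begins, in 1 of them as untranslated sequence. Mir26b lies on chr1:74394310-74394394 (plus strand), intronic to Ctdsp1. How the authors counted a read that matches both miR-26a loci is not given in the sources used here. A double count would scale the ratio of the pair by the same factor in every library and leave its differences between libraries as they are.

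The depth of the libraries differed strongly between the arms. Mouse miRNA counts summed to between 938706 and 2271549 in the depleted and between 21235 and 97183 in the undepleted libraries. In the depleted libraries, miR-26a-5p was counted 5494 to 16334 times and miR-26b-5p 2663 to 4774 times. In the undepleted libraries these ranges were 127 to 506 and 25 to 87 counts. The counting error is thus carried mainly by miR-26b-5p in undepleted libraries.

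Across the 12 libraries miR-26a-5p was always the more abundant of the pair. It ranked between 20 and 30 among the mouse miRNAs of a library, and miR-26b-5p between 39 and 70. Together they made up 0.465% to 1.08% of the mouse miRNA counts. Levels are given as CPM, the count scaled to a library total of 1000000 mouse miRNA counts, a scale on which a dominant miRNA moves all the others.

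For miR-26a-5p, the depleted libraries drawn before injection held 4075 CPM in mouse 1046, 4537 in mouse 1047 and 6917 in mouse 1069. After injection the depleted libraries held 7381, 8242 and 7191 CPM in the same order of mice. Mouse 1069 thus started near the level that the other two reached after injection. The undepleted libraries held 3828, 5622 and 5981 CPM of miR-26a-5p before and 6883, 7314 and 6411 after injection. Both arms placed the mice alike: mouse 1046 was the lowest and mouse 1069 the highest before injection.

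For miR-26b-5p, the depleted libraries held 2429, 2622 and 2837 CPM before injection in mice 1046, 1047 and 1069. After injection they held 2630, 2584 and 1908 CPM, so that mouse 1069 had the lowest value here. In the undepleted libraries, miR-26b-5p stood at 823, 967 and 1177 CPM before injection and at 910, 1039 and 890 after it. Every depleted library lay above every undepleted one.

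**Figure D1:**
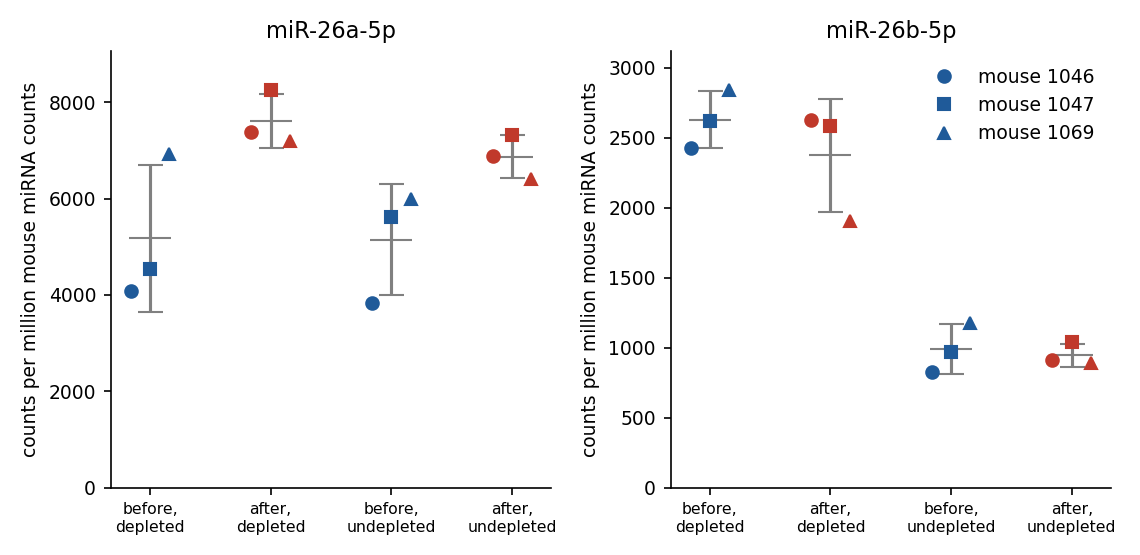
CPM of mouse miRNA counts (y axis, linear from 0) of miR-26a-5p (left) and miR-26b-5p (right) in the 4 groups. Points are libraries (blue before, red after injection), with 1 symbol per mouse, and grey lines show the group mean and SD (n = 3). The depleted libraries lie at 1908 to 2837 for miR-26b-5p and the undepleted ones at 823 to 1177, whereas for miR-26a-5p both arms overlap.

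Ordered by group mean, miR-26a-5p was at 5144 ± 1153 CPM in undepleted libraries before injection (SD, n = 3). It was at 5176 ± 1525 in depleted libraries before injection, at 6870 ± 452 in undepleted libraries after injection and at 7605 ± 560 in depleted libraries after injection (SD, n = 3 each). Each of these groups overlapped the next in its range. Within an arm, however, the time points did not overlap. Depleted libraries held at most 6917 before and at least 7191 after injection, and undepleted ones at most 5981 and at least 6411. How many other miRNAs are apart in CPM was not counted, and shares on normalised counts are given below. The order for miR-26b-5p followed the depletion instead. It was at 946 ± 81 in undepleted libraries after and at 989 ± 178 before injection, then at 2374 ± 404 in depleted libraries after and at 2629 ± 204 before injection (SD, n = 3 each). Only the step from undepleted to depleted libraries lay outside the overlap of neighbouring groups.

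The ratio of the pair needs no normalization, because both counts come from one library. In the depleted libraries drawn before injection, miR-26a-5p was counted 1.68 times as often as miR-26b-5p in mouse 1046 (95% Wilson interval 1.61 to 1.75), 1.73 times in mouse 1047 (1.67 to 1.79) and 2.44 times in mouse 1069 (2.33 to 2.55). After injection the ratio in depleted libraries was 2.81 (2.71 to 2.90), 3.19 (3.08 to 3.30) and 3.77 (3.65 to 3.90). The undepleted libraries gave ratios of 4.65 (3.65 to 5.92), 5.82 (4.64 to 7.30) and 5.08 (3.32 to 7.78) before injection. After injection the undepleted ratios were 7.56 (5.81 to 9.85), 7.04 (5.30 to 9.35) and 7.20 (5.26 to 9.86). The 4 groups followed each other without overlap: depleted before, depleted after, undepleted before and undepleted after injection. The pair was chosen with this ratio in view, and how many other pairs of miRNAs do the same was not counted. Groups without overlap between time points were also common among single miRNAs, as given below. The intervals cover counting error only, and reads amplified by PCR are not independent molecules.

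**Figure D2:**
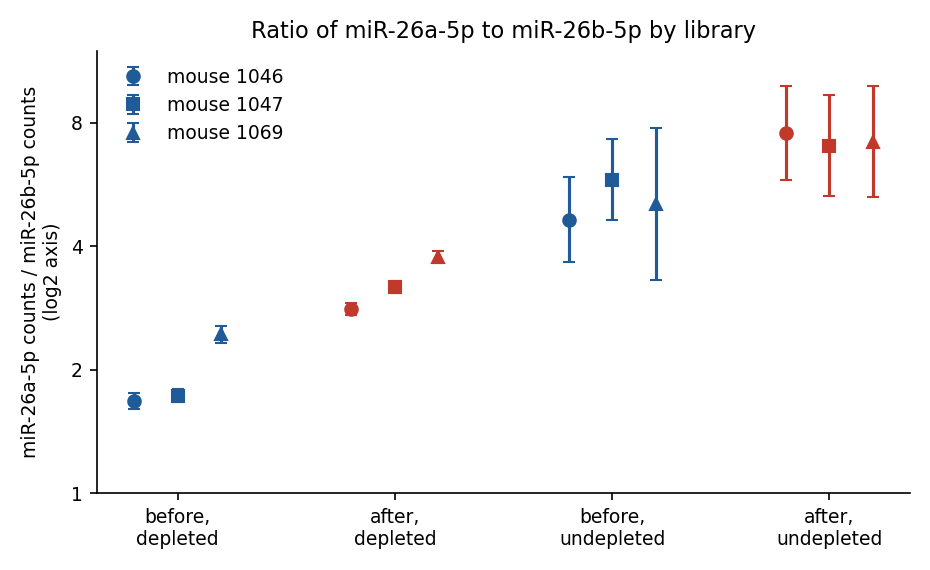
Ratio of miR-26a-5p to miR-26b-5p counts (y axis, log2 scale) in the 12 libraries by group, with 1 symbol per mouse and blue for sera before and red for sera after injection. Bars are 95% Wilson intervals for counting error. The depleted libraries lie between 1.68 and 3.77 and the undepleted ones between 4.65 and 7.56, with wider intervals for the shallower undepleted libraries.

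First, the 2 aliquots of each serum were compared, to ask whether bead depletion left the relation of the pair as it was. The depletion protocol also includes heating, bead handling and ethanol precipitation, and the study describes no aliquot handled alike without probes. Removal of tRNA fragments and this handling therefore cannot be told apart. In each of the 6 sera the ratio was the lower one in the depleted aliquot. The log2 ratio of miR-26a-5p to miR-26b-5p differed by -1.47, -1.75 and -1.06 before injection and by -1.43, -1.14 and -0.93 after it, in mice 1046, 1047 and 1069. On average the difference was -1.30 ± 0.30 (SD, n = 6 sera from 3 mice), a ratio 2.46 times lower in the depleted aliquots. The Wilson intervals of the 2 aliquots, which cover counting error alone, lay apart in 6 of 6 sera. When every library was thinned to 21235 counts, the depth of the smallest, the mean difference was -1.29.

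The difference lay with miR-26b-5p. Its level was 2.14 to 2.95 times as high in the depleted as in the undepleted aliquot, with a mean log2 difference of 1.37 ± 0.18 (SD, n = 6 sera). For miR-26a-5p the mean log2 difference was 0.07 ± 0.19 (SD, n = 6), smaller than the spread between sera, with 5 sera higher and 1 lower in the depleted aliquot. The exception was the serum of mouse 1047 before injection, at -0.31. Of the 2 mature sequences, the one with the larger difference was the shorter one, with U at both substituted positions and the lower GC content. The probe sequences were not used here, and whether sequence had a part in the difference was not tested.

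**Figure D3:**
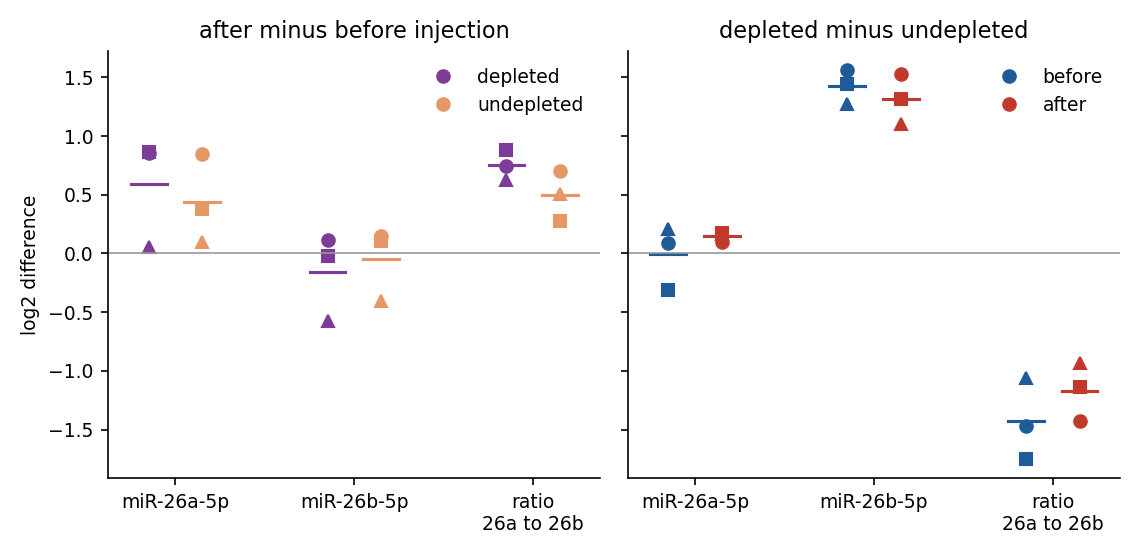
Log2 differences (y axis) of the 2 levels, in CPM, and of their ratio, after minus before injection (left, by arm) and depleted minus undepleted (right, by time). Points are mice, with circles for 1046, squares for 1047 and triangles for 1069, and lines are means of 3. The ratio lies above 0 in all 6 comparisons on the left and below 0 in all 6 on the right.

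Across all mouse miRNAs, depletion was then fitted with DESeq2 on the 12 libraries with time point as a covariate, where normalised counts replace CPM. The fit held no term for the serum, so both aliquots of a serum entered as independent libraries. Its standard errors and calls therefore do not use the pairing. The normalised counts of miR-26b-5p were 719 ± 109 in depleted and 300 ± 27 in undepleted libraries (SD, n = 6 each). The depleted libraries ranged from 553 to 883 and the undepleted ones from 275 to 338. Its log2 fold change was 1.26 (standard error 0.13). For miR-26a-5p the normalised counts were 1804 ± 352 and 1860 ± 353 (SD, n = 6 each) and overlapped, with a log2 fold change of -0.05 (standard error 0.12). A call required a change of 2-fold or more with an adjusted p-value below 0.05. By this rule 1 of the pair, miR-26b-5p, was called, beside 8.36% of the 383 mouse miRNAs tested, 4.96% as higher and 3.39% as lower. Groups did not overlap for 7.57% of them with depleted libraries higher and for 1.83% with these lower. The pair was chosen with this contrast in view, so these counts are no support for a difference.

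Of the 383 tested miRNAs, 20 had a higher log2 fold change than miR-26b-5p. Among the 115 whose mean normalised count reached 50, 7 did. The scaling moved the median of all 383 fold changes, from -0.04 with median-of-ratios factors to 0.21 with TMM factors and 0.08 with library totals. Relative to that median, miR-26b-5p was higher by 1.30, 1.30 and 1.31 on the log2 scale, and miR-26a-5p differed by -0.01, 0.00 and 0.01. The raw fold change of miR-26a-5p thus switched sign with the scaling, as its distance from the median was small under each. With TMM factors the calls were 32 higher and 10 lower, in place of 19 higher and 13 lower.

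**Figure D4:**
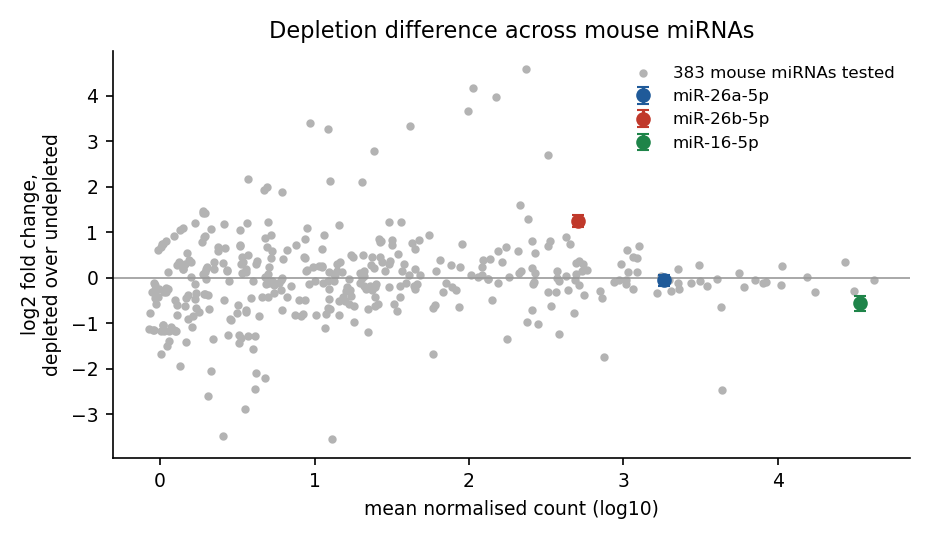
Log2 fold change of depleted over undepleted libraries (y axis, DESeq2 with the prior) against the mean normalised count (x axis, log10) for the 383 mouse miRNAs tested. Coloured points with standard errors are miR-26a-5p at -0.05, miR-26b-5p at 1.26 and miR-16-5p at -0.56.

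Next, sera drawn after injection were compared with those drawn before. The ratio was higher after injection in 3 of 3 mice in both arms. In depleted libraries the log2 ratio differed by 0.74 in mouse 1046, 0.88 in mouse 1047 and 0.63 in mouse 1069, with a mean of 0.75 ± 0.13 (SD, n = 3), a ratio 1.68 times higher. In undepleted libraries the differences were 0.70, 0.27 and 0.50, with a mean of 0.49 ± 0.21 (SD, n = 3), a ratio 1.41 times higher. Both means exceeded the spread between mice. The Wilson intervals before and after lay apart in 3 of 3 mice in depleted libraries and overlapped in 3 of 3 in undepleted ones. They cover counting error alone, not the spread between mice, and are wider in the shallower undepleted libraries. As the pair was chosen with this ratio in view, neither these intervals nor the size of the means beside their SD is a test of a difference. Both arms drew on the same sera, and the undepleted values are therefore no separate biological replication.

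The mice reached this higher ratio in different ways on the scale of CPM. In depleted libraries miR-26a-5p was 1.81 times as high after injection in mouse 1046 and 1.82 times in mouse 1047, while miR-26b-5p was at 1.08 and 0.99 times its earlier level. In mouse 1069, miR-26a-5p was at 1.04 times its earlier level and miR-26b-5p at 0.67 times. The undepleted libraries of mouse 1069 gave 1.07 times for miR-26a-5p and 0.76 times for miR-26b-5p. Those of mice 1046 and 1047 gave 1.8 and 1.3 times for miR-26a-5p and 1.11 and 1.08 times for miR-26b-5p. With a mean log2 difference of 0.59 ± 0.46 for miR-26a-5p and -0.16 ± 0.36 for miR-26b-5p in depleted libraries (SD, n = 3 each), each level varied between mice more than the ratio did.

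On DESeq2-normalised counts the depleted libraries held 7348, 9095 and 10352 of miR-26a-5p before and 10552, 11876 and 10758 after injection. They held 4380, 5256 and 4246 of miR-26b-5p before and 3759, 3724 and 2854 after injection. On this scale neither miRNA's groups overlapped, with miR-26a-5p higher and miR-26b-5p lower after injection. In CPM, those of miR-26a-5p were apart as well, whereas those of miR-26b-5p overlapped. On normalised counts, groups without overlap were found for 20.3% of the 311 tested mouse miRNAs in the higher and 18.0% in the lower direction. The log2 fold changes were 0.29 for miR-26a-5p (standard error 0.24) and -0.40 for miR-26b-5p (standard error 0.24). Neither of the pair was called, beside 10.6% of all tested, 4.82% as higher and 5.79% as lower. Higher fold changes than that of miR-26a-5p were found for 86 of the 311, and lower ones than that of miR-26b-5p for 102.

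In undepleted libraries, miR-26a-5p had normalised counts of 232, 363 and 293 before and 370, 394 and 345 after injection, and those of miR-26b-5p were 49.9, 62.4 and 57.6 before and 48.9, 56.0 and 47.9 after it. Both overlapped between the time points on this scale, whereas miR-26a-5p did not in CPM. The log2 fold changes were 0.30 for miR-26a-5p (standard error 0.24) and -0.14 for miR-26b-5p (standard error 0.31), and neither was called, beside 11.0% of the 109 tested, 8.26% as higher and 2.75% as lower. Groups did not overlap for 22.0% of these in the higher and 17.4% in the lower direction. Scaling by library totals moved the median of all fold changes by 0.22 in depleted libraries. Relative to the median, miR-26a-5p was higher by 0.39 to 0.40 and miR-26b-5p lower in each of the 3 scalings there, at -0.31 to -0.26. That scaling gave 32 higher and 5 lower calls in depleted libraries, in place of 15 and 18.

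Whether the difference between time points depended on the arm was fitted as an interaction in DESeq2. The interaction was 0.08 for miR-26a-5p (standard error 0.26, log2 scale) and -0.20 for miR-26b-5p (standard error 0.28). Over all 874 mouse miRNAs the adjusted p-value was under 0.05 for 0 (0.00%) in DESeq2, where 3 had an unadjusted p-value under 0.05, and for 0 in edgeR, where 11 did. These fits held no term for the serum, although aliquots of a serum were alike, so their errors include differences between sera. With the serum as a block in DESeq2, 8 had an unadjusted p-value under 0.05 and 0 an adjusted one. The lack of calls therefore does not show that the arms changed alike. The standard errors allow interactions of moderate size in the pair.

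The human tables held the same values. The human entry MIMAT0000082 had the 66253 counts of miR-26a-5p, identical in each of the 12 libraries. MIMAT0000083 had 24580 counts against 24581 of miR-26b-5p, with a difference of 1 count in 1 library. The next nearest human entries differed by 5945 and 4884 counts. Both tables thus counted the same reads, and reads of the pair from SH-SY5Y cells cannot be told apart from those of the mouse.

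A single marker could be set beside the pair, miR-16-5p (MIMAT0000527). It is abundant in red blood cells and, like the miR-26 family, known to be repressed by MYC. It held 108496 to 125973 CPM in depleted libraries before and 56241 to 77115 after injection, and 144761 to 178076 before and 71416 to 103728 after injection in undepleted ones. The DESeq2 log2 fold change after injection was -1.07 in depleted libraries (standard error 0.25, adjusted p = 0.000885). Relative to miR-26a-5p, miR-16-5p was counted 15.7 to 30.9 times as often before and 7.82 to 10.4 times as often after injection in depleted libraries. In all 3 mice miR-16-5p was thus lower and the ratio of the pair higher after injection, and the part of red cell RNA in the ratio was not tested. Between the aliquots of a serum, miR-16-5p was lower in the depleted one in 6 of 6 sera, at 0.70 to 0.79 times its level in the undepleted one.

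Finally, the miRNAs most like each of the pair were sought among 71 mouse miRNAs with at least 50 raw counts on average in the 6 undepleted libraries. Pearson's r was computed over log2 normalised counts of the 12 libraries. These share sera and mice in sets, so r is a description. The profiles of miR-26a-5p and miR-26b-5p were not alike, with r = -0.16 over 12 libraries and -0.54 over the 6 depleted ones. Nearest to miR-26a-5p were MIMAT0000130 (r = 0.81), MIMAT0000379 (0.80) and MIMAT0000514 (0.78). Nearest to miR-26b-5p were MIMAT0000666 (r = 0.94), MIMAT0000121 (0.93) and MIMAT0003151 (0.69), whose log2 fold changes upon depletion were 0.90, 0.70 and 0.47. Within the 6 depleted libraries, miR-26b-5p was nearest to MIMAT0014943, MIMAT0014944 and MIMAT0000128 (r = 0.95 each), which had log2 fold changes of -1.10, -1.25 and -0.97 after injection. There miR-26a-5p was nearest to MIMAT0000130 (r = 0.92), MIMAT0000514 (0.90) and MIMAT0000537 (0.69). The set nearest to miR-26b-5p thus differed between both choices of libraries, while MIMAT0000130 was first for miR-26a-5p in both. The nearest miRNAs were picked in the same libraries that gave their fold changes, so these fold changes partly restate the choice and are no separate finding.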

How the data were processed

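Small RNA libraries were made from serum RNA with the TruSeq kit. The authors deposited raw read counts for each mature miRNA, 1 mouse and 1 human table per library, not normalized. The authors trimmed adaptors (Cutadapt 1.8.1, named in the submitters' processing notes), dropped reads under 15 bases, filtered on base quality, mapped with Bowtie 1.1.2 without mismatches and assigned reads by miRBase coordinates on GRCm38/mm10 or GRCh37/hg19. A miRNA without an entry was taken as 0. Depth ranged from 21235 to 2271549 mouse counts, which sets the Wilson intervals given.

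Groups were taken from the labels. DESeq2 1.42.0 (R 4.3.3) was fitted across all mouse miRNAs with median-of-ratios factors and the Wald test. It used the zero-centred prior (none for the interaction) and independent filtering at 0.05. A check on simulated counts covered only the time comparison in depleted libraries, drawn independently of each other. It does not bear on the depletion and interaction fits. Calls needed a 2-fold change or more and a p-value, adjusted by Benjamini-Hochberg, below 0.05. Ratios, intervals and correlations used Python 3.11.15, NumPy 2.4.6 and SciPy 1.17.1, with 1 added to normalised counts before the log2 in correlations. Alternatives were edgeR 4.0.16, TMM factors, library totals, a filter of at least 4 counts in 3 libraries, no prior, no fold cut-off, a replicate block, human tables, summed counts, a pseudocount, thinning (20 draws per library) and leaving out each mouse.

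The pair, the lists and the tests were chosen with earlier results of these data known. Named were the pair, same-seed miRNAs and the 3 nearest miRNAs per profile. Lists of MYC-repressed and of blood cell, liver, muscle and endothelial miRNAs were set by name. The tables used here pair no accessions with names, so only miR-16-5p could be matched, and the lists and the opposite hairpin strands were not analysed.

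By mouse and sample numbers in the labels, sera before and after came from the same mouse and both aliquots from the same serum. Over 71 miRNAs, the mean correlation of deviations from group means was 0.78 between aliquots of a serum, and -0.06 (depleted) and -0.21 (undepleted) between sera of a mouse.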

Additional observations from a re-analysis of the deposited data

Results flagged for a closer look

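In the comparison of aliquots, the serum of mouse 1047 before injection stood apart for miR-26a-5p: its log2 difference in CPM, depleted minus undepleted, was -0.309, against 0.09 to 0.21 in the other 5 sera. The gap to its neighbour was 0.77 of the whole range. Chance flags about 1 in 20 groups of values in this way, and 4 quantities were examined.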

How the results depend on the processing

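The ratio of the pair kept its direction, and moved by less than the spread between mice or sera, in every alternative tried. Part of this was fixed beforehand. All mice or sera differed in the same direction, so leaving out any mouse could not change it, and the human tables counted the same reads. Leaving out each mouse gave a log2 difference after minus before injection of 0.69 to 0.81 in depleted and 0.39 to 0.60 in undepleted libraries, and of -1.45 to -1.22 for depleted minus undepleted. The log2 fold change of miR-26a-5p upon depletion switched sign, to 0.215 with TMM factors, 0.22 with edgeR and 0.085 with library totals, and it ranged from -0.125 to 0.0701 when each mouse was left out, above 0 without mouse 1047 alone. That of miR-26b-5p was 1.51 with TMM factors and 1.53 with edgeR. Calls over all miRNAs depended on the settings. Without the fold cut-off they numbered 52 in place of 33 (after versus before, depleted), 21 in place of 12 (undepleted) and 55 in place of 32 (depletion). Leaving out each mouse gave 14 to 33, 1 to 11 and 20 to 33 calls, and 0 throughout for the interaction, with the fewest without mouse 1047 in both time comparisons and without mouse 1046 in that of depletion. With the mouse or serum as a replicate block the calls were 26 and 11 for the time comparisons, 27 for depletion and 0 for the interaction. The call on each of the pair did not change, which is no support, as the pair was chosen with these contrasts in view. Depth limits miR-26b-5p in undepleted libraries, with 25 counts in the shallowest.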
